A study of Mus musculus with 6 samples.

Results

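Iron storage and transport genes are described here in 8 members. These are ferritin subunits Fth1 and Ftl1, uptake genes Tfrc, Steap3 and Slc11a2, the phagosome transporter Slc11a1, the exporter Slc40a1 and the regulator Ireb2. The members were chosen by name, with RPKM (reads per kilobase of the gene, scaled to the depth of the library) of these same 6 libraries already in view, so their values are a description and were not tested. All 8 were found among 23473 RefSeq rows of a table with 56826 rows, and all 8 were among the 12320 RefSeq rows with a mean of at least 1 RPKM, which entered the fit across genes. The sequenced RNA came from cells captured from Lewis lung carcinoma (LLC) tumors with beads against CD31, an endothelial surface protein, and the question was how endothelial Notch activation altered those cells. There were 3 libraries of Ctrl mice, labelled wild type, and 3 of NICeCA mice, which carry a Cdh5 cre ERT2 driver and a Rosa26 flox-stop-flox Notch1 ICD allele, so that the active intracellular part of Notch1 is made in endothelial cells after tamoxifen. All mice were C57BL/6 and 8 weeks old by the labels. By the study's methods tamoxifen was given at 100 mg/kg for 5 days before the tumor cells, and neither labels nor methods state if the Ctrl mice carried the Cre driver or received tamoxifen. The labels speak of tumors taken on different days and the methods of day 14, and which library came from which day is not given. Reads recovered from the RPKM values numbered between 27793301 and 30769916 per library over the RefSeq rows.

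Cells take up iron bound to transferrin through the transferrin receptor Tfrc, reduce it in endosomes with Steap3, and move it to the cytosol through the transporter Slc11a2, while Slc11a1 moves metal out of the phagosomes of macrophages. Iron that is not used is stored in shells of ferritin heavy chain (Fth1) and light chain (Ftl1), and leaves the cell through ferroportin (Slc40a1). The iron regulatory proteins, among them Ireb2, bind hairpins called iron responsive elements in the messenger RNAs of ferritin, ferroportin and the transferrin receptor and set their translation or stability, so that much of this control acts after transcription.

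The label of the cells was checked against marker lists. All 12 endothelial markers were measured, and their summed level was 577, 223 and 291 RPKM in Ctrl libraries 1 to 3 and 489, 637 and 588 in NICeCA libraries 1 to 3, with Pecam1, the gene of CD31, the most abundant at a mean of 114 RPKM. All 12 had a positive log2 difference of NICeCA against Ctrl, and 1 of them, Flt1, was called higher by limma. Ctrl library 1 stood apart from the other Ctrl libraries and lay within the NICeCA range. The labels give a purity above 90%, but macrophage genes were abundant: 13 markers summed to 3850, 3074 and 2723 RPKM in Ctrl and 3662, 2843 and 1741 in NICeCA, led by C1qa, a complement subunit, at a mean of 811 RPKM. NICeCA library 3 was the lowest of the 6 in that sum. The libraries therefore held RNA of leukocyte genes beside endothelial RNA, and in such bulk samples fewer cells of a type and less RNA per cell cannot be told apart.

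Ferritin took the first place among the members by level. Ftl1, the light chain, stood at 1742, 1993 and 1931 RPKM in Ctrl and 3879, 4243 and 4416 RPKM in NICeCA, and ranked 9 by mean RPKM among the 12320 rows. The ranks given are of the mean over the libraries of both groups, and so of neither group alone. Fth1, the heavy chain with the ferroxidase site, stood at 727, 851 and 925 RPKM in Ctrl and 1996, 1926 and 2329 RPKM in NICeCA, and ranked 22. For both subunits the 3 NICeCA libraries lay above the 3 Ctrl libraries with a wide gap and little spread inside a group. The group means of Ftl1 were 1889 ± 131 and 4179 ± 274 RPKM (SD, n = 3 each), a ratio of 2.21, and those of Fth1 were 834 ± 100.2 and 2084 ± 215 RPKM, a ratio of 2.50. On the log2(RPKM + 1) scale, which is used for the log2 differences given here unless another setting is named and understates the change of low genes, NICeCA minus Ctrl was 1.15 for Ftl1 (SE 0.14) and 1.32 for Fth1 (SE 0.16). Under the alternative settings, which include another pseudocount and voom on recovered reads, and with single libraries left out it ranged from 1.09 to 1.20 for Ftl1 and from 1.19 to 1.40 for Fth1. Each standard error (SE) in this text is limma's moderated value. It draws the variance of a gene toward the trend over all tested rows, and so is not the spread of that gene alone.

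The reads behind these values were many. Fth1 was read 42873 to 54497 times per Ctrl library and 102756 to 131054 times per NICeCA library, so counting error was small beside the spread between libraries, a coefficient of variation of 12.0% in Ctrl and 10.3% in NICeCA. Together the ferritin rows held 0.365%, 0.417% and 0.422% of the RefSeq reads in Ctrl and 0.857%, 0.892% and 0.995% in NICeCA. The ratio of Ftl1 to Fth1 in RPKM was 2.40, 2.34 and 2.09 in Ctrl and 1.94, 2.20 and 1.90 in NICeCA. The light chain was thus above the heavy chain in 6 of 6 libraries, and the ratios of the groups overlapped. Both genes have processed copies elsewhere in the genome, and how the authors' counting placed reads that match several copies is not given, so the levels of these rows are uncertain to that extent. The row of the ferritin heavy chain-like gene Fthl17 was at 0 in all 6 libraries.

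Transferrin receptor, the entry point of transferrin iron, was far lower. Tfrc stood at 7.18, 8.41 and 11.8 RPKM in Ctrl and 12.8, 9.63 and 10.6 RPKM in NICeCA, a log2 difference of 0.26 (SE 0.19). The groups overlapped, with Ctrl library 3 above NICeCA libraries 2 and 3, and the difference was 0.12 without Ctrl library 1, 0.16 without NICeCA library 1 and 0.44 without Ctrl library 3. Steap3, the ferrireductase of the endosome, stood at 5.91, 6.55 and 9.61 RPKM in Ctrl and 8.28, 4.24 and 6.42 RPKM in NICeCA, a log2 difference of -0.21 (SE 0.24). Its highest library was of Ctrl and its lowest of NICeCA, but the ranges overlapped. The difference of Steap3 was 0.01 without NICeCA library 2 and -0.02 without Ctrl library 3. It was -0.40 without NICeCA library 1 and -0.33 without Ctrl library 1. Slc11a2, the divalent metal transporter, stood at 3.93, 5.61 and 5.46 RPKM in Ctrl and 4.68, 4.77 and 5.15 RPKM in NICeCA, a log2 difference of -0.02 (SE 0.14). All NICeCA values lay inside the Ctrl range, and the sign of the difference turned under median ratio scaling (0.02) and quantile normalization (0.11), and without Ctrl library 2 (0.05), Ctrl library 3 (0.04) or NICeCA library 1 (0.0013). The lowest value of Slc11a2 over the alternatives was -0.16, without Ctrl library 1.

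Slc11a1, the transporter of phagocyte vesicles, followed ferritin in level, at 54.7, 48.6 and 60.0 RPKM in Ctrl and 70.6, 71.3 and 57.1 RPKM in NICeCA, a log2 difference of 0.28 (SE 0.14). NICeCA libraries 1 and 2 lay above all Ctrl libraries and NICeCA library 3 lay within them. With quantile normalization the groups had nearly equal means, and over the other alternatives the difference reached 0.38. The summed macrophage markers given above were lowest in library 3 of each group, which had the least Slc11a1 of NICeCA and the most of Ctrl, and the part of macrophage RNA in the level of Slc11a1 was not tested. Beside it, 9 of the 13 macrophage markers had a negative log2 difference, 1 of the 13, Cd68, was called higher by limma, and each was above 0 in every library.

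Ferroportin, the only known exporter of iron from cells, varied most among the members. Slc40a1 stood at 1.06, 1.40 and 5.83 RPKM in Ctrl and 2.85, 7.95 and 7.38 RPKM in NICeCA, with a coefficient of variation of 96.2% in Ctrl and 46.2% in NICeCA. Ctrl libraries 1 and 2 were low, and Ctrl library 3 lay above NICeCA library 1, so the groups overlapped. The log2 difference of 1.03 was near that of ferritin, but its SE of 0.49 was larger than theirs, and the value ranged from 0.71 to 1.57 over the alternatives. The lowest library held 140 reads of Slc40a1 and the highest 949.

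Ireb2, which binds iron responsive elements when iron is scarce, stood at 4.60, 4.79 and 7.07 RPKM in Ctrl and 4.59, 5.95 and 4.45 RPKM in NICeCA, a log2 difference of -0.10 (SE 0.18). Ctrl library 3 was the highest and NICeCA library 2 the next, the groups overlapped, and the sign turned with quantile normalization (0.03) and without Ctrl library 3 (0.07). The difference was -0.21 without NICeCA library 2, the lowest over the alternatives, and -0.20 without Ctrl library 1.

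By mean RPKM over the 6 libraries the order of the members was Ftl1, Fth1, Slc11a1, Tfrc, Steap3, Ireb2, Slc11a2 and Slc40a1. The Ctrl means had this order, with Slc40a1 last at 2.77 RPKM. Among the NICeCA means Slc40a1 (6.06 RPKM) lay above Ireb2 (4.99 RPKM) and Slc11a2 (4.86 RPKM). Ftl1 was above Fth1, Fth1 above Slc11a1, Slc11a1 above Tfrc and Tfrc above Steap3 in 6 of 6 libraries. Steap3 was above Ireb2 in 5 of 6, Ireb2 above Slc11a2 in 3 of 6 and Slc11a2 above Slc40a1 in 3 of 6, so the last 4 places did not differ beyond the spread of the libraries. Of the 8 members, 2 had groups that did not overlap with NICeCA higher, Fth1 and Ftl1, and 0 with NICeCA lower. Over all 12320 rows the groups did not overlap in 16.5% with NICeCA higher and in 24.4% with NICeCA lower. Since the members were chosen on this contrast, nothing is read from that count.

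**Figure D1:**
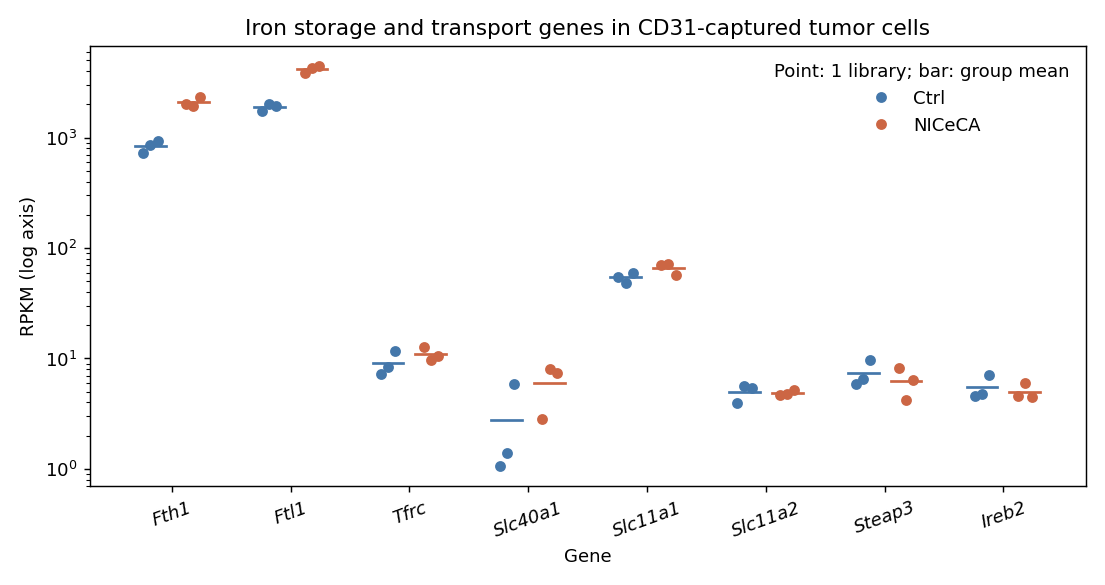
RPKM of the 8 members on a log axis, 1 point per library, with a bar at the mean of each group (Ctrl and NICeCA, n = 3 each). Fth1 and Ftl1 show NICeCA libraries apart from Ctrl libraries, from 1926 against at most 925 RPKM for Fth1 and from 3879 against at most 1993 RPKM for Ftl1, and the groups of the other 6 overlap.

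The rows most like each member in profile were found by the root mean square difference of log2(RPKM + 1) over the 6 libraries, after the mean of each gene was taken off. For Fth1 these were Tnfsf9 (0.071) and Prdx6 (0.10), and for Ftl1 Gadd45a (0.065) and Ptgr1 (0.071). Prdx6 stood at 32.3, 37.1 and 49.2 RPKM in Ctrl and 94.7, 101 and 109 RPKM in NICeCA, the shape by which it was picked. The nearest rows were Pdk3 and Pilra for Tfrc, Fam20b and Pigu for Steap3, Cox16 and Fundc1 for Slc11a1, 4930503L19Rik and Set for Slc11a2, and Zfp800 and Mob1b for Ireb2. The profile of Slc40a1 had no close neighbour: the nearest were Irg1 (0.24) and Pydc4 (0.29).

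Some members shared a sequence feature that did not enter their choice. The core of the iron responsive element was searched on the transcript strand of annotated untranslated regions (UTRs). The pattern was a C, 5 stem bases, the loop CAGTG with A, C or T as its last base, and 5 bases that pair with the stem. The pattern counted G with T as a pair and allowed no bulge or mismatch. It was found in 123 of 21877 genes (0.562%), 23 of them with it in the 5′ UTR and 100 in the 3′ UTR. Fth1, Ftl1 and Slc40a1 each held 1 match in the 5′ UTR, Tfrc held 4 in the 3′ UTR, and Slc11a1, Slc11a2, Steap3 and Ireb2 held none of these letters. The matches are shown because 4 of the 8 members hold this strict pattern. Elements with a bulge or mismatch in these pairs would be missed, so a member without a match may still hold an element. A match is a description, not a site at which binding was measured. Sequences are given 5′ to 3′ on the transcript strand of GRCm38, with the loop in capitals, at chr19:9982733-9982760 (plus strand) for Fth1, chr7:45459779-45459806 (minus strand) for Ftl1, chr1:45925465-45925492 (minus strand) for Slc40a1, and chr16:32631220-32631247, chr16:32631599-32631626, chr16:32631664-32631691 and chr16:32631711-32631738 (plus strand) for Tfrc.
Fth1 5′ UTR: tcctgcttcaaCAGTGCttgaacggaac
Ftl1 5′ UTR: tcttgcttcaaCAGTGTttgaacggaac
Slc40a1 5′ UTR: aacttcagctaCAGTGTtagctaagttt
Tfrc 3′ UTR at 32631220: attatcggaagCAGTGCcttccataatt
Tfrc 3′ UTR at 32631599: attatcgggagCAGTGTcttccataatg
Tfrc 3′ UTR at 32631664: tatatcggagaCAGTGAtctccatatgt
Tfrc 3′ UTR at 32631711: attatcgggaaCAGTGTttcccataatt

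Among the other genes with the pattern in the 5′ UTR, 15 were tested, of which 1 was called higher and 2 lower by limma, and their median log2 difference was 0.11. Among those with it in the 3′ UTR, 64 were tested, with 0 called higher (3 at an unadjusted p under 0.05, and 0 called by voom) and 10 called lower (20 at an unadjusted p under 0.05, and 14 called by voom), and a median of -0.17. The median of all tested rows was -0.05, and limma called 5.88% of them higher and 7.68% lower. Of the same 12320 rows voom called 683 higher and 1337 lower.

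RefSeq promoters of GRCm38 were searched over the 250 bases before each start, on both strands, for TGGGAA (the core bound by RBPJ, the DNA-binding partner of Notch), CACGTG (an E-box) and TGACNNNGC (the core of the antioxidant response element), which 21.6%, 6.0% and 10.2% of 32851 promoters hold. Among the 6 members with an entry, TGGGAA was present for Slc11a1 and for the more upstream start of Fth1, at chr19:9980350-9980599, and CACGTG and TGACNNNGC were in none of these windows. These matches describe letters only.

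The other genes of iron handling were taken from 7 lists of 74 genes, of which 66 are not members and 52 of those were tested. By limma, 8 of the 52 were called higher in NICeCA and 0 lower at an adjusted p under 0.05, against 5.88% and 7.68% of all tested rows. At an unadjusted p under 0.05, 14 were higher and 6 lower, and voom on recovered reads called 8 and 0. The median log2 difference of the 52 was 0.14, against -0.05 over all rows. The lists, like the members, were chosen with earlier results of these data known. Nothing is therefore read from these counts, shares and medians, here or list by list below. Of all calls 43.4% were higher, 57.4% with median ratio scaling 57.8% with quantile normalization and 33.8% with voom, which called 683 higher and 1337 lower. The count depended on the libraries: 4 iron list genes were called higher without Ctrl library 1 (3 of the 8, and Epas1), 3 without Ctrl library 2, 1 without NICeCA library 1, 0 without NICeCA library 2 and 5 without NICeCA library 3 (4 of the 8, and Blvra). Without the filter on low values 1 call was left, Hmox1, and with quantile normalization there were 5. Median ratio scaling gave 9, the 8 and Isca1. A paired fit on the replicate numbers in the titles left 4 of the 8: Fbxl5, Hmox1, Hp and Lcn2. Over all rows that fit called 327 higher and 209 lower, and the numbers were not taken as pairs. Epas1, Blvra and Isca1 are named here after their values were seen. Over all rows the 725 higher and 946 lower calls became 499 and 536 without Ctrl library 1, 242 and 137 without Ctrl library 2, 91 and 14 without NICeCA library 1, and 26 and 1 without NICeCA library 2.

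In the list of ferritin subunits and iron chaperones, 1 of 3 tested genes beside the members was called. Ncoa4, the receptor that carries ferritin to autophagy, rose from 15.2, 11.8 and 18.5 RPKM to 24.5, 25.5 and 23.8 RPKM, a log2 difference of 0.68 (SE 0.16, limma adjusted p = 0.0388). All NICeCA libraries lay above all Ctrl libraries, as for Fth1, the ferritin subunit it binds. The call was lost in 8 of 14 alternatives, among them 5 of the 6 with a library left out. The chaperone Pcbp1, which delivers iron to ferritin, stood at 43.6, 51.2 and 61.5 RPKM in Ctrl and 48.3, 45.2 and 43.0 RPKM in NICeCA and was not called. The mitochondrial ferritin Ftmt was at 0 in 5 of 6 libraries.

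Of 6 tested uptake genes beside the members, 2 were called higher. Lcn2, a siderophore-binding protein that neutrophils and other cells secrete, rose from 0.811, 2.86 and 5.17 RPKM to 10.2, 16.9 and 35.7 RPKM, a log2 difference of 2.47 (SE 0.52, limma adjusted p = 0.0317). Steap4, a metalloreductase, rose from 3.21, 2.13 and 2.94 RPKM to 4.42, 5.57 and 10.1 RPKM, a log2 difference of 0.98 (SE 0.26, limma adjusted p = 0.0469). In both, the NICeCA libraries lay above the Ctrl libraries and NICeCA library 3 was the highest. The call of Steap4 was lost in 8 of 13 alternatives, among them all 6 with a library left out, and that of Lcn2 in 5 of 14. Neutrophil markers moved the same way: 7 of 8 tested were called higher, and the 11 in the table summed to 119, 204 and 273 RPKM in Ctrl and 633, 896 and 1711 in NICeCA, led by S100a9, with Elane and Mpo below 1 RPKM in all libraries. The part of neutrophil RNA in the levels of Lcn2 and Steap4 was not tested. The second transferrin receptor Tfr2 was below 0.1 RPKM throughout, and Slc39a8, Slc22a17 and Scara5 were too low to be tested, with Slc39a8 higher in all NICeCA libraries than in any Ctrl library.

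For export, only Cp, a ferroxidase, was tested, at 3.27, 4.10 and 3.82 RPKM in Ctrl and 3.97, 3.34 and 4.09 RPKM in NICeCA, and it was not called. Heph, the membrane-bound ferroxidase, had a mean under 1 RPKM and was not tested. Its values of 0.350, 0.119 and 0.125 RPKM in Ctrl lay below those of 0.430, 0.520 and 0.484 RPKM in NICeCA, from 28 to 109 reads. Hephl1 had at most 6 reads.

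In the regulatory list 1 of 7 tested genes was called. Fbxl5, the ubiquitin ligase subunit that directs degradation of the iron regulatory proteins, Ireb2 among them, rose from 31.3, 24.7 and 42.2 RPKM to 64.2, 64.1 and 65.7 RPKM, a log2 difference of 0.99 (SE 0.19, limma adjusted p = 0.0247). The 3 NICeCA libraries were nearly equal and lay above every Ctrl library, and the call was lost in 4 of 14 alternatives. Zfp36, an RNA-binding protein and the most abundant gene of the list, stood at 192, 162 and 243 RPKM in Ctrl and 242, 258 and 291 RPKM in NICeCA and was not called. The hepcidin genes Hamp and Hamp2 held at most 3 reads in any library, and Tmprss6 and Hfe2 were also too low to be tested.

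In the list of heme uptake, breakdown and export, 4 of 10 tested genes were called higher, 1 of them an enzyme of heme breakdown, and 0 lower. At an unadjusted p under 0.05 by limma, 6 were higher and 2 lower. The groups did not overlap in 7 with NICeCA higher and in 1 with NICeCA lower, beside 16.5% and 24.4% of all 12320 rows. Hmox1, the inducible heme oxygenase that frees iron from heme, rose from 126, 231 and 192 RPKM to 600.3, 716 and 808 RPKM, a log2 difference of 1.98 (SE 0.23, limma adjusted p = 0.0101). Hp, which binds free hemoglobin, rose from 8.24, 12.1 and 19.0 RPKM to 43.8, 28.1 and 33.5 RPKM, a log2 difference of 1.40 (SE 0.28, limma adjusted p = 0.0286). In both genes no NICeCA library fell within the Ctrl range, and the call of Hmox1 was lost in 1 of 14 alternatives and that of Hp in 4 of 14. Neutrophils also make Hp, the neutrophil sums given above separated the groups too, and their part in its level was not tested. Slc48a1, a heme transporter of endolysosomes, and Mfsd7b, listed elsewhere as the heme exporter Flvcr1, were called with log2 differences of 0.62 (SE 0.13, limma adjusted p = 0.0326) and 0.52 (SE 0.13, limma adjusted p = 0.0409), and each lost its call in 7 of 14 alternatives. Red cell markers were low in all libraries: 13 of them summed to 32.6, 43.0 and 25.2 RPKM in Ctrl and 8.42, 17.5 and 36.2 in NICeCA, led by Hbb-b1, and all 6 tested had negative log2 differences. The 6 tested were all globin rows, alpha on chromosome 11 and beta on chromosome 7, in pairs of rows that overlap and share reads. Hbb-b2 and Hbb-bt had the same position and values, and Beta-s overlapped Hbb-b1 as Hba-a2 overlapped Hba-a1. The 6 rows are thus not 6 separate genes, and the sums count the same reads more than once. Hpx and Mfsd7c were too low to be tested, with Mfsd7c lower in all NICeCA libraries than in any Ctrl library.

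In heme synthesis 0 of 8 tested genes passed limma's threshold (0 higher and 2 lower at an unadjusted p under 0.05, and 0 called by voom), Alas2 was too low to be tested (1.04, 2.28 and 0.920 RPKM in Ctrl, above 0.277, 0.630 and 0.733 RPKM in NICeCA), and Urod and Alas1, the most abundant, had log2 differences of 0.25 (SE 0.12) and 0.10 (SE 0.16). Of the 8 tested, 5 were negative, and the groups did not overlap in 4 with NICeCA lower and in 1 with NICeCA higher. Over all 12320 rows the groups did not overlap in 24.4% with NICeCA lower and in 16.5% with NICeCA higher. In the list of mitochondrial iron and iron-sulfur clusters 0 of 17 passed limma's threshold (2 higher and 1 lower at an unadjusted p under 0.05, 0 called by voom, and Isca1 called higher with median ratio scaling). Iscu and Glrx5 had differences of 0.33 (SE 0.14) and 0.17 (SE 0.13), which ranged from 0.14 to 0.41 and from 0.04 to 0.24 over the alternatives. In that list the groups did not overlap in 3 of 17 genes with NICeCA higher and in 1 with NICeCA lower, beside 16.5% and 24.4% of all rows. Nothing is read from the overlap counts of these lists. The list medians were -0.09 and 0.17.

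**Figure D2:**
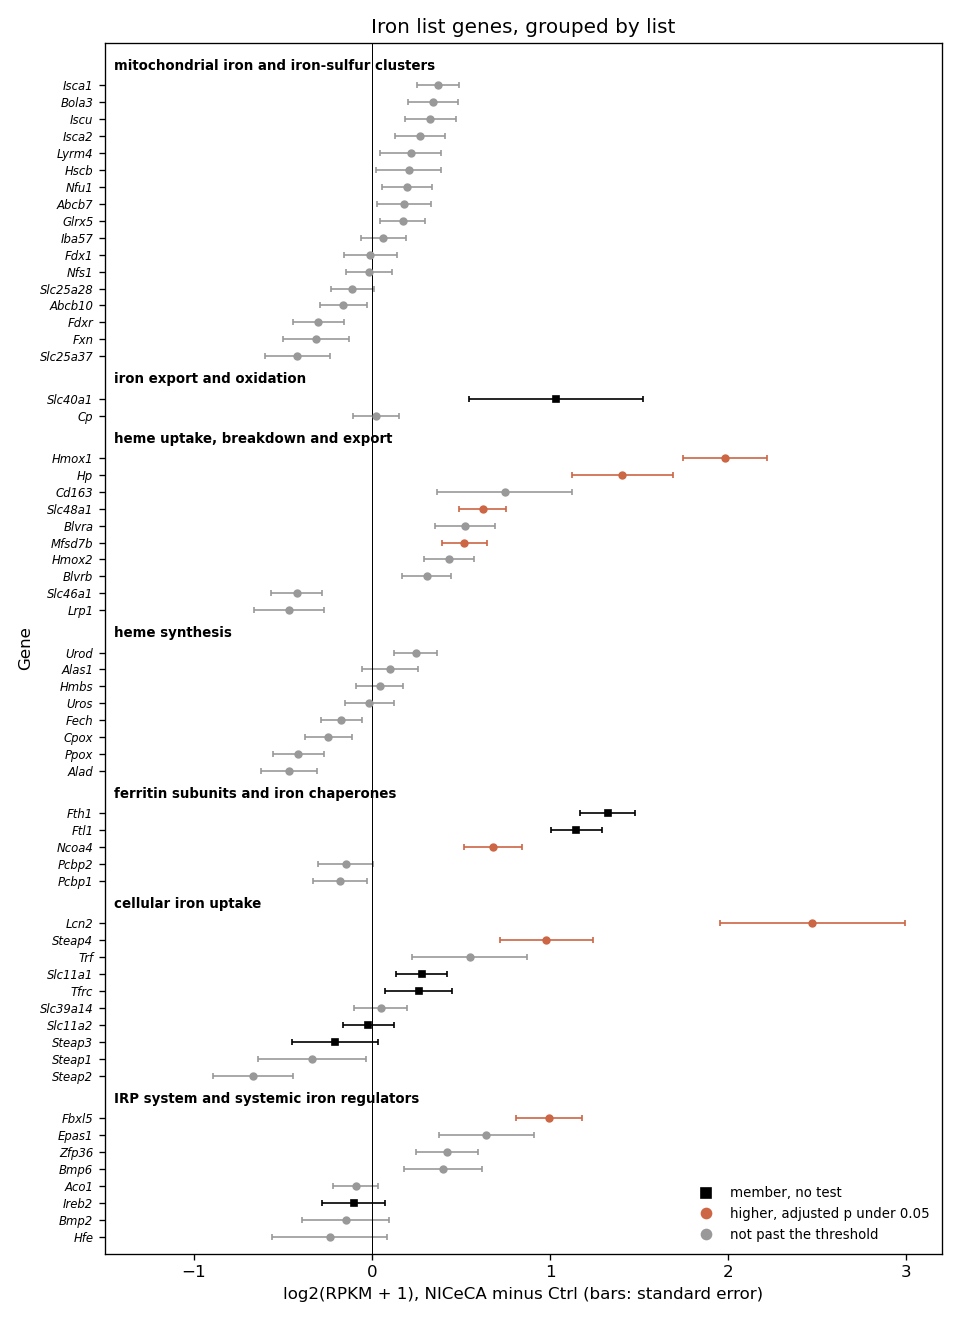
log2(RPKM + 1) of NICeCA minus Ctrl for each tested gene of the 7 lists (n = 3 libraries per group), with bars of 1 moderated standard error by limma. Black squares are members, with no test. Orange circles are the 8 genes past the threshold of the adjusted p, and grey circles are the rest. Fth1 and Ftl1 lie at 1.32 and 1.15, and Lcn2, Hmox1 and Hp lie above them at 2.47, 1.98 and 1.40.

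The remaining marker lists are given for the same libraries. The 8 fibroblast markers summed to 390.1, 658 and 454 RPKM in Ctrl and 232, 181 and 355 in NICeCA, led by Col3a1, with 4 of 7 tested genes called lower and Col1a1 and Col1a2 at positive log2 differences of 0.10 and 0.55. The 9 mural markers summed to 46.5, 38.1 and 56.1 and to 95.0, 77.8 and 148, led by Rgs5. Of 8 tested, 7 had a positive log2 difference and 3 were called higher by limma. The groups overlapped for Pdgfrb (-0.03), Myh11, Des and Notch3, and Cspg4 was too low to be tested. Fibroblast and mural sums thus lay on opposite sides. The 6 platelet markers summed to 126, 114 and 197 and to 1307, 1211 and 1175, carried by Pf4 and Ppbp, both called higher, while Itga2b, Gp1ba, Gp9 and Gp5 had groups that overlapped, at means of at most 1.93 RPKM. The 9 lymphocyte markers summed to 52.9, 29.9 and 62.0 and to 34.2, 50.1 and 55.1, led by Cd2, and the 6 epithelial markers to 7.56, 6.86 and 12.6 and to 8.83, 6.50 and 8.41, led by Cdh1, which was not called, with Krt18 called lower and Krt8 below 0.2 RPKM. Neutrophil sums, given above, and mural and platelet sums were higher in all NICeCA libraries than in any Ctrl library, and fibroblast sums were lower, as the ferritin levels separated the groups. The part of these cell types in the ferritin levels was not tested.

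The members lie on 6 chromosomes in GRCm38. Fth1 is at chr19:9980600-9985111, Ftl1 at chr7:45457944-45459886, Tfrc at chr16:32608896-32632794, Slc11a2 at chr15:100387900-100423055 and Ireb2 at chr9:54863755-54912534. Slc40a1 (chr1:45908070-45925594), Slc11a1 (chr1:74375203-74386051) and Steap3 (chr1:120226416-120271082) share chromosome 1 but are not neighbours. Rows of the FANTOM3 transcript collection overlap Fth1, Slc40a1, Slc11a1 and Ireb2, and since the strand setting of the counting is not given, reads of overlapping rows cannot be told apart.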

How the data were processed

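Values were the authors' deposited RPKM per library, with paired reads aligned with TopHat2. The submitters' processing notes name mm9, but the deposited positions matched GRCm38 in 99.3% of 21665 rows, and GRCm38 is used. Reads were recovered from RPKM and row length, in whole numbers for 100% of low values within 0.05 of a read, up to 1000 reads. RefSeq rows with a mean of at least 1 RPKM were fitted as log2(RPKM + 1) with limma 3.58.1 (trend) in R 4.3.3, two-sided, with Benjamini-Hochberg adjustment over 12320 rows. The code was tested on simulated data. The members and lists were chosen with earlier results of these data known. Named were the members; called genes of each list, or the most abundant up to 2; list genes not tested; the 2 nearest rows per member; and top and absent markers. The methods name 3 pairs of mice, but neither they nor the labels say which libraries form a pair. Alternatives were a replicate block, other filters, pseudocount 0.1, median ratio scaling, quantile normalization, no trend, voom on recovered reads and each library left out.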

Additional observations from a re-analysis of the deposited data

Results flagged for a closer look

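A row of the FANTOM3 transcript collection, outside the RefSeq rows compared, lies within Fth1 on the other strand at chr19:9981923-9982490 (GRCm38, model G930005L15, minus strand). It stood at 3.70, 1.81 and 4.11 RPKM in Ctrl and 7.81, 15.6 and 11.5 RPKM in NICeCA, a ratio of means of 3.62, from 41 to 312 reads per library. It was picked out because every NICeCA library was above every Ctrl library in data the comparisons did not use. Among the 7 FANTOM3 rows at the members, the groups also did not overlap in 2 rows on the strand of the member, both lower in NICeCA: 1 within Ireb2 at chr9:54874999-54875968, with a ratio of means of 0.262 from 7 to 47 reads, and model D330050J08 across Slc11a1, with a ratio of 0.469. Over the 31858 FANTOM3 rows above 0 in at least 1 library, the groups did not overlap in 6.57% with NICeCA higher and in 24.3% with NICeCA lower, and nothing is read from these 7. Without a known strand setting the reads of G930005L15 cannot be told apart from those of Fth1.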

How the results depend on the processing

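With the replicate block, a paired fit on the number in the titles, 327 genes were called higher, 209 lower and 4 iron list genes higher; deviations of same-numbered libraries correlated at 0.122, -0.343 and -0.178, 1 of 6 libraries correlated best with its own number, and the numbers were not taken as pairs. Without the filter the counts were 260, 105 and 1, and with a mean of at least 5 RPKM 579 genes were called lower; fewer or more rows were then tested. With quantile normalization they were 446 higher and 325 lower, with 5 iron list genes higher and 1 lower (Lrp1, named after its value was seen). With single libraries left out the counts ranged from 26 to 913 higher, from 1 to 832 lower, from 0 to 7 iron list genes higher and from 0 to 1 lower (Steap2, also named after its value was seen, without NICeCA library 3). Cp turned to -0.0040 with voom, and with single libraries left out it ranged from -0.05 (without Ctrl library 1) to 0.093, negative also without NICeCA libraries 1 and 3. Alas1 ranged from -0.016 (without Ctrl library 2) to 0.20. The cause was not tested. Hmox1 kept its call in 13 of 14 alternatives (adjusted p = 0.0504 by limma without NICeCA library 2), Fbxl5 and Hp in 10 of 14, Lcn2 in 9 of 14, Slc48a1 and Mfsd7b in 7 of 14, Ncoa4 in 6 of 14 and Steap4 in 5 of 13. Slc40a1 had 140 reads in its lowest library, but its spread between Ctrl libraries was wide (coefficient of variation 96.2%).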
